A study of Mus musculus with 12 samples.

Results

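The genes described are 10 targets and effectors of the integrated stress response, listed by name, with earlier results of these data known: Ddit3, Trib3, Atf4, Atf5, Chac1, Asns, Sesn2, Ddit4, Psat1 and Phgdh. All 10 had a probe set with a single gene symbol, exactly 1 each, among the 19938 genes measured. Kidney RNA of female mice was hybridised to 12 whole-transcript arrays in 3 groups of 4. The WT FGF23 group held wild-type mice (strain label C57BL/6) given recombinant FGF23 intraperitoneally at 500 ng/g, and the WT vehicle group held wild-type mice of the same strain label given 100 µl of saline. The KL null group lacked klotho, carried the strain label 129/SvEv/C57BL/6 and received the same saline, so genotype and strain label cannot be told apart. All mice had 5 to 8 weeks of standard diet and were killed 1 hour after the injection. The labels do not say which promoter, exon or cell type the Kl mutation involves, nor whether each array came from its own mouse, so p-values measure the spread between these arrays only. KL null mice were given no FGF23 in these arrays.

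In the integrated stress response, kinases that sense amino acid shortage, unfolded protein, haem shortage or viral RNA phosphorylate the initiation factor eIF2alpha, which slows general translation while favouring that of Atf4 mRNA. ATF4 then switches on genes of amino acid synthesis and uptake, and with its target CHOP, the product of Ddit3, genes that can lead to cell death when the stress lasts. Since ATF4 is made largely under translational control, its mRNA is not a measure of its protein. FGF23 is a bone-derived hormone that acts on the kidney through FGF receptors and the co-receptor klotho.

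The sequences upstream of 4 members are shown because each holds 1 of the motifs searched. The motifs, on either strand of the 250 bases before each RefSeq transcript start in GRCm38.p6, were TGATGNAA (CARE, the C/EBP-ATF element bound by ATF4), ERSE (the endoplasmic reticulum stress element), TGANTCA (the AP-1 site) and GCGNGGGCG (the EGR site). Motifs are in capitals and each run reads 5′ to 3′ along the gene's strand.
Ddit3: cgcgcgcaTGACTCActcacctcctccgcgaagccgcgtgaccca
Asns: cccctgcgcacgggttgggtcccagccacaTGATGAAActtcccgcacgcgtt
Chac1: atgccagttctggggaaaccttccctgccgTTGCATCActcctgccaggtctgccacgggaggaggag
Atf5: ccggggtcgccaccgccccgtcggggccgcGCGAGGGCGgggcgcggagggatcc
The Ddit3 run is chr10:127290543-127290587 on the plus strand, with an AP-1 match whose first base lies at -242 from the start. The Asns run is chr6:7693210-7693262 on the minus strand, with a CARE match at -23 to -16. For Chac1 the run is chr2:119351019-119351086 on the plus strand, and its CARE match lies on the opposite strand at -193 to -186. For Atf5 it is chr7:44816659-44816713 on the minus strand, with an EGR match at -25 to -17. All of these are upstream of the annotated start, outside the transcript. All 10 members had at least 1 window, 12 in all, and 4 members had a match. Of all 32841 promoter windows, 3.45% held CARE, 0.113% ERSE, 6.75% the AP-1 site and 4.7% the EGR site. No member held an exact match to ERSE. Inexact matches were not searched for, so variants of any motif may be present. A match describes the letters only, and no binding was measured.

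Values are log2 RMA signals, so a difference of 1 is a doubling, and levels were compared within a gene, not between genes. Kl was at 9.66 to 9.8 in KL null and at 10.44 to 10.74 in the 8 wild-type arrays. The KL null mean was 0.54 times that of vehicle, so much of the Kl signal remained. Which part of Kl the mutation removes is not given, so this signal is no check of a complete loss. Egr1, an early response gene, was at 8.93 to 9.69 after FGF23 and 5.98 to 6.33 with vehicle. Lrp2 of the proximal tubule was at 12.19 to 12.82 over the 12 arrays, Umod of the thick limb at 12.49 to 12.91, Aqp2 of the collecting duct at 9.28 to 9.89 and Nphs1 of podocytes at 6.97 to 7.53. The adipocyte marker Adipoq was at 3.41 to 3.82. Havcr1, a marker of tubule injury, set 2 wild-type arrays apart, at 10 in WT vehicle replicate 1 and 9.87 in WT FGF23 replicate 4, where the other 6 were at 4.59 to 5.66 and KL null at 6.24 to 7.26. Array standard deviations ran from 2.166 to 2.281, lowest in WT FGF23 replicates 1 and 2 (2.166 and 2.167). Since the samples are whole kidney, fewer cells of a type and less RNA per cell cannot be told apart.

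In WT FGF23 against WT vehicle, 1 hour after the injection, Ddit3 was the single member that rose, 1.49-fold, and the other 9 did not pass the test. A gene was called when its limma p-value, adjusted over all genes by the Benjamini-Hochberg method, was below 0.05. Beside this 1 of 10 members, 0.0853% of all genes were called, 16 of them higher (0.0802%) and 1 lower (0.00502%). Centring the arrays on their medians made this 5 and 1. The members had a median log2 difference of 0.14, with 7 positive and 3 negative, beside 0.04 over all genes.

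Ddit3 encodes CHOP, a transcription factor of the C/EBP family that is scarce in unstressed cells. WT FGF23 replicates 1 to 4 were at 7.44, 7.48, 7.28 and 7.11 (log2 signal). WT vehicle replicates 1 to 4 were at 6.80, 6.66, 6.83 and 6.72. KL null replicates 1 to 4 were at 6.70, 6.58, 6.69 and 6.95. All 4 FGF23 arrays lay above all 8 others, and the KL null arrays overlapped the vehicle arrays. The mean rose from 6.75 ± 0.08 with vehicle to 7.33 ± 0.17 with FGF23 (SD, n = 4), a log2 difference of 0.57 (SE 0.10, 95% interval 0.36 to 0.79, limma adjusted p = 0.047). KL null, at 6.73 ± 0.16, differed from vehicle by -0.02 (interval -0.24 to 0.19, adjusted p = 0.938). The call after FGF23 lies close to the threshold: of 22 other fits 5 kept it, with log2 differences of 0.44 to 0.65 and adjusted p of 0.0305 to 0.783. It was lost on leaving out any of 10 of the 12 arrays and kept without WT FGF23 replicate 4 (0.0465) or KL null replicate 4 (0.0411). Leaving out a KL null array could not change the difference itself, only its estimated spread and the adjustment. The adjusted p was highest without both WT FGF23 replicates 1 and 2. Without WT vehicle replicate 1, which with WT FGF23 replicate 4 had high Havcr1, the difference was 0.59 (adjusted p = 0.12), and without WT FGF23 replicate 4 it was 0.65.

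**Figure D1:**
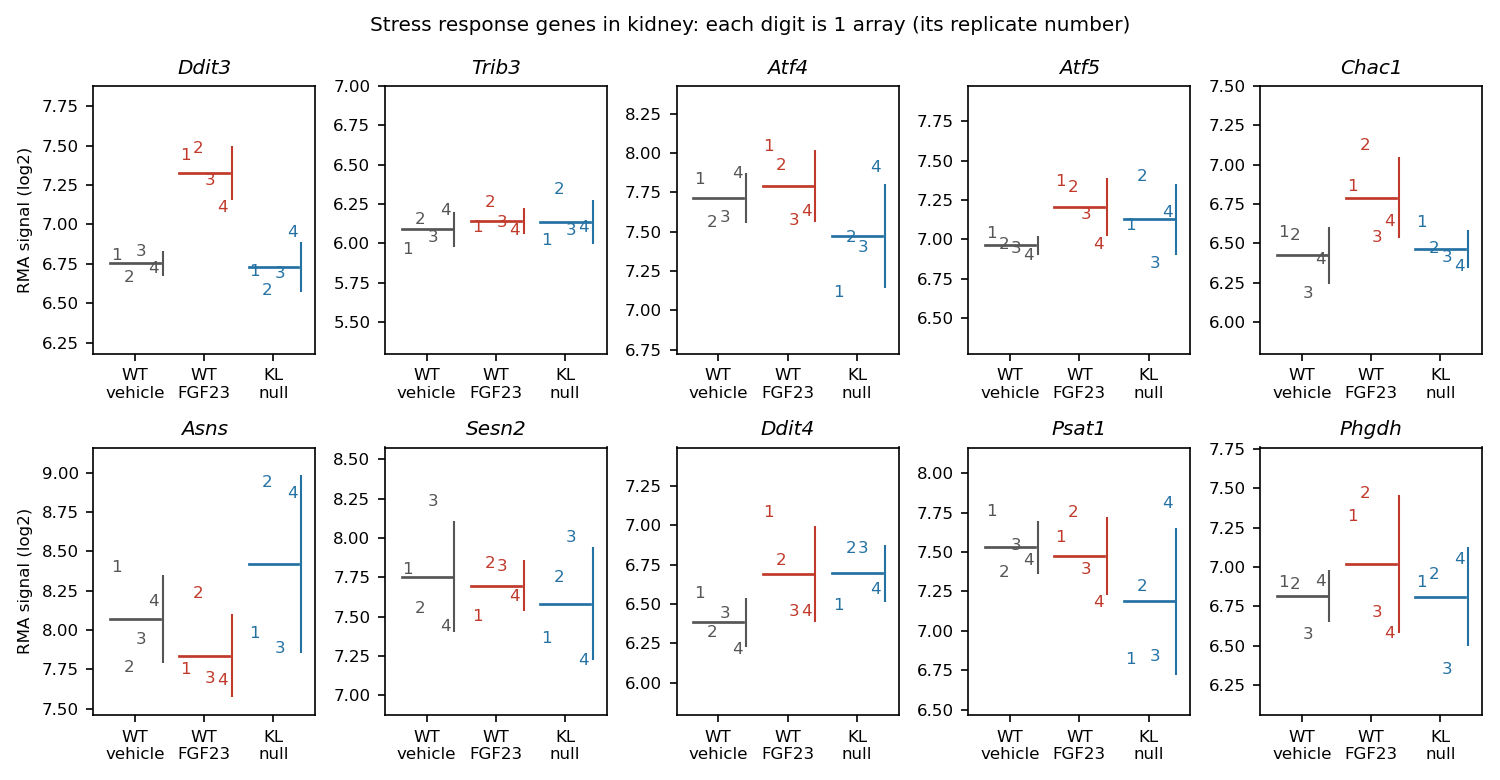
Log2 RMA signal of the 10 genes (vertical axes, each spanning 1.7 log2 units) in the 3 groups (horizontal axes), where each digit is 1 array and gives its replicate number, horizontal lines are group means and vertical bars are 1 SD either side over 4 arrays. For Ddit3 the 4 FGF23 arrays (7.11 to 7.48) sit above all others, and for the other 9 genes the FGF23 and vehicle arrays overlap.

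The transcription factors Atf4 and Atf5 did not pass in either comparison with vehicle. Atf4 encodes the central activator of the response. Its level was 8.04, 7.92, 7.57 and 7.63 in WT FGF23 replicates 1 to 4, and 7.83, 7.56, 7.59 and 7.87 in WT vehicle. In KL null it was 7.11, 7.46, 7.40 and 7.91. The FGF23 and vehicle arrays were interleaved, and 3 of 4 KL null arrays lay below every wild-type array while replicate 4 was among the higher ones. Means were 7.79 ± 0.23, 7.71 ± 0.16 and 7.47 ± 0.33 in that order. The log2 difference from vehicle was 0.08 after FGF23 (interval -0.24 to 0.40, adjusted p = 0.814) and -0.24 in KL null (-0.56 to 0.08, adjusted p = 0.4).

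Atf5, a bZIP factor that is under translational control like ATF4, was at 7.37, 7.33, 7.16 and 6.97 after FGF23. With vehicle it was at 7.04, 6.97, 6.94 and 6.90, and in KL null at 7.09, 7.40, 6.85 and 7.17. FGF23 replicates 1 to 3 lay above every vehicle array and replicate 4 within their range. The difference of 0.24 (interval 0.00 to 0.49) had an unadjusted p of 0.0486 and an adjusted p of 0.323 in limma. In KL null the difference was 0.17 (-0.08 to 0.41, adjusted p = 0.463).

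Of the 2 direct targets with regulatory roles, Trib3 was the steadiest member and Chac1 had the second largest difference after FGF23. Trib3 encodes a pseudokinase that binds ATF4 and AKT. Its 12 arrays ran from 5.96 to 6.34, with 6.10, 6.26, 6.13 and 6.08 after FGF23, 5.96, 6.15, 6.04 and 6.21 with vehicle, and 6.02, 6.34, 6.08 and 6.10 in KL null. All 3 groups overlapped, and the differences from vehicle were 0.05 (interval -0.14 to 0.24) and 0.04 (-0.15 to 0.24). Differences beyond 0.24 in either direction thus lie outside both intervals.

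Chac1 encodes a gamma-glutamyl cyclotransferase that degrades glutathione, and its CARE-containing promoter is printed above. It stood at 6.86, 7.12, 6.54 and 6.64 after FGF23, 6.57, 6.55, 6.18 and 6.40 with vehicle, and 6.63, 6.47, 6.41 and 6.35 in KL null. FGF23 replicates 1, 2 and 4 lay above every vehicle array, and replicate 3 lay just below the 2 highest of them. The means were 6.79 ± 0.26 and 6.43 ± 0.18, a log2 difference of 0.36 (interval 0.10 to 0.63) with an unadjusted p of 0.0103 and an adjusted p of 0.258 in limma. It was 0.17 (adjusted p = 0.996) without FGF23 replicates 1 and 2. KL null differed from vehicle by 0.04 (-0.23 to 0.31, adjusted p = 0.908).

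The amino acid synthesis enzymes Asns, Psat1 and Phgdh had wide spreads and passed in neither comparison with vehicle. Asns, asparagine synthetase, is a classic ATF4 target, and its CARE match is shown above. It was at 7.75, 8.23, 7.69 and 7.68 after FGF23 and at 8.40, 7.76, 7.94 and 8.18 with vehicle. In KL null replicates 2 and 4 it was at 8.94 and 8.87, above every other array, while replicates 1 and 3 were at 7.98 and 7.88, within the vehicle range. KL null therefore had a mean of 8.42 ± 0.57, against 8.07 ± 0.28 with vehicle and 7.84 ± 0.26 after FGF23. The differences from vehicle were 0.35 in KL null (interval -0.13 to 0.83, adjusted p = 0.425) and -0.23 after FGF23 (-0.71 to 0.25, adjusted p = 0.613).

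Phgdh and Psat1 encode enzymes of the serine pathway, which starts from a glycolytic intermediate. Psat1 was at 7.59, 7.75, 7.39 and 7.18 after FGF23, 7.76, 7.37, 7.54 and 7.45 with vehicle, and 6.82, 7.28, 6.84 and 7.81 in KL null. Its KL null arrays spanned the largest range of the 3 groups, with replicates 1 and 3 below all wild-type arrays and replicate 4 above them. The KL null difference was -0.34 (interval -0.74 to 0.06, adjusted p = 0.323), and without KL null replicate 4 it was -0.55 with an adjusted p of 0.0414. After FGF23 the difference was -0.05 (-0.45 to 0.35). Phgdh was at 7.32, 7.47, 6.71 and 6.58 after FGF23, 6.90, 6.89, 6.57 and 6.91 with vehicle, and 6.90, 6.95, 6.35 and 7.05 in KL null. FGF23 replicates 1 and 2 were the highest of all arrays, and replicates 3 and 4 were within the vehicle range. The differences were 0.20 after FGF23 (-0.20 to 0.61, adjusted p = 0.601) and -0.01 in KL null (-0.41 to 0.40, adjusted p = 0.993). Without FGF23 replicates 1 and 2 the former was -0.17 (adjusted p = 0.996).

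Sesn2 and Ddit4, whose products restrain the growth kinase complex mTORC1, did not pass either. Sesn2, a leucine sensor, was at 7.50, 7.84, 7.82 and 7.63 after FGF23, 7.80, 7.55, 8.23 and 7.44 with vehicle, and 7.36, 7.75, 8.00 and 7.22 in KL null. All groups overlapped, with differences of -0.06 (interval -0.44 to 0.32) after FGF23 and -0.17 (-0.55 to 0.21) in KL null. Ddit4, also called REDD1, responds to hypoxia and glucocorticoids as well as to ATF4. Its level was 7.08, 6.78, 6.45 and 6.45 after FGF23, 6.57, 6.32, 6.44 and 6.21 with vehicle, and 6.49, 6.85, 6.85 and 6.59 in KL null. WT FGF23 replicates 3 and 4 and KL null replicate 1 lay inside the vehicle range, and the others above it. Ddit4 was 0.30 higher than vehicle after FGF23 (0.01 to 0.60, unadjusted p = 0.0435, adjusted p = 0.314) and 0.31 higher in KL null (0.02 to 0.60, unadjusted p = 0.0406, adjusted p = 0.208) in limma. Without FGF23 replicates 1 and 2 the first of these was 0.07 (adjusted p = 0.996).

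**Figure D2:**
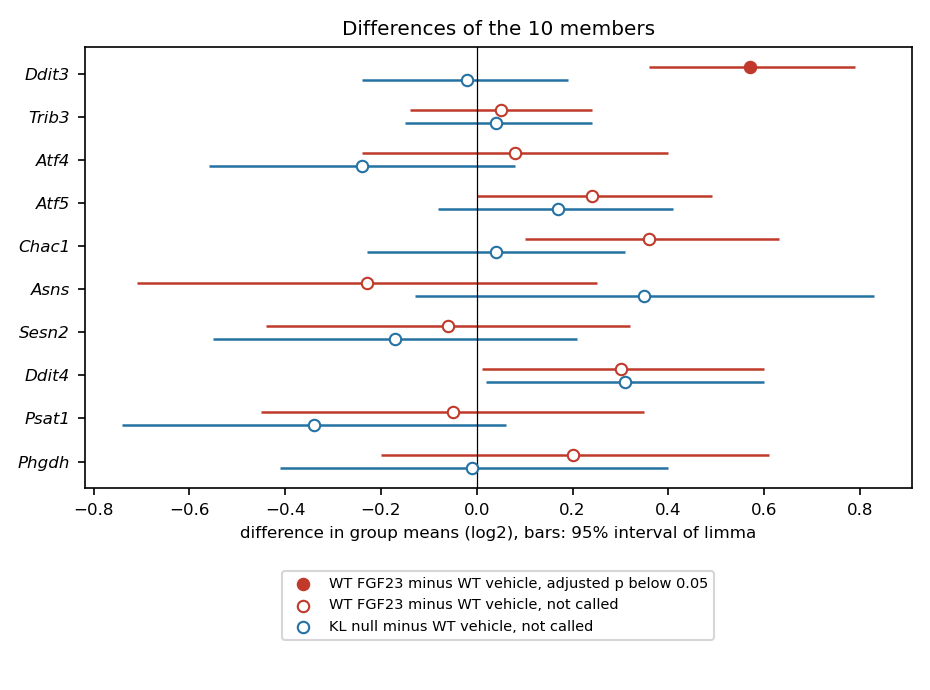
Difference in group means (log2, horizontal axis) of each of the 10 genes for WT FGF23 minus WT vehicle (red) and KL null minus WT vehicle (blue), with limma's 95% intervals as bars and filled points for an adjusted p below 0.05. The single filled point is Ddit3 after FGF23 at 0.57, and both comparisons use the same 4 vehicle arrays.

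In unadjusted limma p-values, 4 of the 10 members (Ddit3, Chac1, Ddit4 and Atf5) were below 0.05 after FGF23, all higher, where 15.4% of all genes were. When WT FGF23 replicates 1 and 2 were left out, 1 of 10 was, against 4.15% of all genes. These 2 arrays, whose signals had the lowest SD, were the highest 2 of the FGF23 group in 8 of 10 members, all but Trib3 and Sesn2, and in 36.4% of all genes. In a fit with the SD of each array as a covariate no member was called by limma: Ddit3 lost its call at a difference of 0.57 (adjusted p = 0.245), and Chac1 was at 0.13 and Phgdh at -0.10. The arrays of the groups did not overlap for 1 member, Ddit3, and for 7.01% of all genes.

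In KL null against WT vehicle 0 of 10 members were called by limma, against 8.01% of all genes. Of these genes 713 (3.58%) were higher and 885 (4.44%) lower, or 428 and 1239 after centring the arrays on their medians. The members had a median difference of 0.02 beside 0.03 over all genes, with 5 positive and 5 negative. In limma 1 of 10, Ddit4, had an unadjusted p below 0.05, against 21.3% of all genes. In 0 of 10 did the groups not overlap, against 13.8%. KL null replicates 2 and 4 were the highest 2 of their group in 6 members, namely Trib3, Atf4, Atf5, Asns, Psat1 and Phgdh. They were so in 14.7% of all genes. This pair of arrays was picked after its values were seen and gives a description, not a test.

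**Figure D3:**
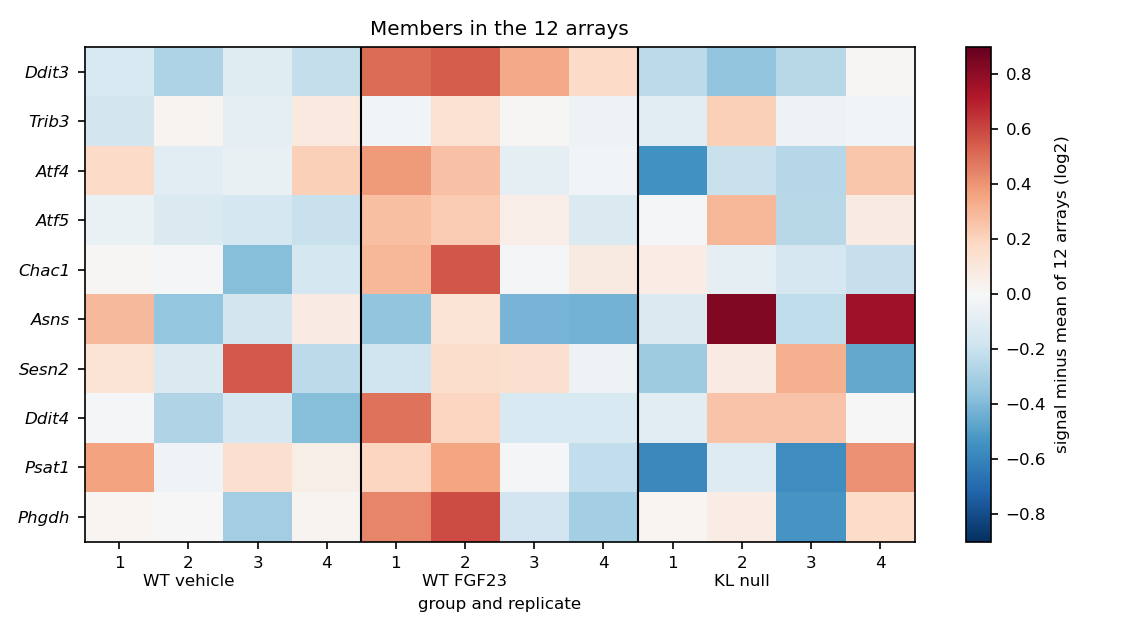
Log2 signal of each gene (rows) minus its mean over 12 arrays, by array (columns, grouped by group and numbered by replicate), on a colour scale from -0.9 (blue) to 0.9 (red). Ddit3 is red in all 4 FGF23 arrays, FGF23 replicates 1 and 2 are high in most rows, and Asns is high in KL null replicates 2 and 4.

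The direct contrast of WT FGF23 with KL null shares no array between its sides, which differ in FGF23, genotype and strain label. It is also the test of whether the difference from vehicle was the same in both, since vehicle cancels. Ddit3 was 1.51-fold higher in WT FGF23 than in KL null (log2 difference 0.60, SE 0.10, interval 0.38 to 0.81, limma adjusted p = 0.00197). This call held in all 23 other fits (highest adjusted p = 0.0325). Leaving out a WT vehicle array could not change this difference, only its estimated spread and the adjustment. The adjustment is milder where more genes are called, here 2386 against 17 for FGF23 against vehicle, where the Ddit3 difference was 0.57. Ddit3 was the single member called, and higher, where 12% of all genes were called and 5.25% called higher. In 3 of 10 members, Ddit3, Chac1 and Asns, the unadjusted limma p was below 0.05, against 27.3% of all genes. The arrays did not overlap for 1 member, Ddit3, and for 16.1% of all genes. Asns had the next largest difference, -0.58 (-1.06 to -0.10, adjusted p = 0.109), followed by Chac1 with 0.33 (0.06 to 0.59, adjusted p = 0.104) and Atf4 with 0.32 (unadjusted p = 0.0512, adjusted p = 0.186). Deviations from the group means of same-numbered arrays in these 2 groups were correlated (r of 0.143 to 0.259). The labels name no pairing, and arrays with different numbers were not compared, so no pairing is shown. With the replicate number as a block in the fit of all 12 arrays Chac1 passed (adjusted p = 0.0413) and Asns did not (0.089). With the block in a fit of these 8 arrays alone Asns passed (0.0421) and Chac1 did not (0.063). Atf4 passed without KL null replicate 4 (0.0441) and Chac1 without WT FGF23 replicate 3 (0.0449). The intervals of Atf4 and of the other 6 members included 0, widest for Psat1 (-0.11 to 0.69) and Phgdh (-0.20 to 0.61).

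The wider pathway was read through 8 lists with 79 measured genes of 83 entries: eIF2alpha kinases and phosphatases, partner transcription factors, amino acid enzymes, tRNA synthetases, transporters, other ATF4 or CHOP targets, the other arms of the unfolded protein response, and paralogs of the members. After FGF23, 0 of the 79 were called by limma, against 0.0853% of all genes, and 17 had an unadjusted p below 0.05, against 15.4% of all genes. Their median difference was 0.03, beside 0.04 over all genes. The range was -0.50 to 0.37, so no gene of the 8 lists had a positive difference as large as that of Ddit3.

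In KL null 14 of the 79 were called, against 8.01% of all genes. The share called was larger among brighter genes. In a fit of genes at or above the median level, 19 of 64 pathway genes were called, against 1861 of 9969 genes. Of the 14, 3 were higher and 11 lower, against 3.58% and 4.44% of all genes. Among the 11, 7 belonged to the IRE1 and ATF6 arms of the unfolded protein response. That list holds the sensors, chaperones and degradation factors that handle misfolded protein in the endoplasmic reticulum. In it 7 of 16 genes fell and 0 rose, with a median difference of -0.27, where 4.44% of all genes were called lower. All 16 were among the brighter genes. In the fit of those genes 9 of the 16 were called lower, where 1861 of 9969 were called in either direction. Hyou1, a large endoplasmic reticulum chaperone, was at 8.58, 8.63, 8.47 and 8.86 in KL null and at 9.55, 9.23, 9.53 and 9.31 with vehicle. It fell 1.71-fold (log2 difference -0.77, SE 0.0988, adjusted p = 0.000303), with no overlap. Hspa5, or BiP, the master chaperone that holds the stress sensors inactive, was at 10.63, 10.53, 10.55 and 10.70 in KL null and at 11.29, 10.97, 11.09 and 11.09 with vehicle, 1.42-fold lower (adjusted p = 0.00758). Atf6b, a paralog of the sensor ATF6, was at 7.30 ± 0.08 and 7.88 ± 0.20, 1.49-fold lower (adjusted p = 0.00326). The other 4 called, named after their values were seen, were Calr, Manf, Hsp90b1 and Edem1, at -0.40, -0.50, -0.33 and -0.33. Hyou1, Hspa5 and Atf6b were called in all 22 other fits. Fits that left out only WT FGF23 arrays could not change a difference between KL null and vehicle, only its estimated spread and adjustment. Averaging over probe sets could not change it for a gene with a single probe set. The count in the list was 4 without WT vehicle replicate 1 and 4 without replicate 3, and between 5 and 9 in the other fits.

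After FGF23 this list had 0 of 16 called by limma, against 0.0853% of all genes, and 5 of 16 with an unadjusted p below 0.05, against 15.4%. Its median was 0.05, with 12 differences positive and 4 negative, from -0.07 to 0.37. After centring the arrays on their medians 6 were positive and 10 negative. In the direct contrast 9 of the 16 were called higher in WT FGF23 than in KL null and 0 lower, against 5.25% and 6.72% of all genes. Hspa5 was at 0.79 (limma adjusted p = 0.000324) and Hyou1 at 0.89 (limma adjusted p = 8.11e-05). In the fit of the brighter genes alone, 2789 of 9969 were called in either direction, and 11 of the 16 were higher. Markers of other cells moved with the KL null group. The mean of 8 immune markers was 6.50 to 7.63 in KL null and 5.90 to 6.15 with vehicle. Of these 4 were called higher (Cd68, Lyz2, Mmp12 and Gpnmb), while Ptprc, Adgre1, Cd3e and Cd79a were not. Cd79a was lower in KL null, at a mean of 3.48 against 3.79 with vehicle. For 4 injury markers the list mean was 6.79 to 7.99 in KL null and 5.70 to 7.38 with vehicle, with Lcn2, Krt20 and Vcam1 called higher. The vehicle value of 7.38 is that of replicate 1, the array with Havcr1 at 10. For 4 proximal tubule markers it was 11.92 to 12.01 in KL null and 12.08 to 12.29 with vehicle, with 2 called lower. Aqp1 of that list was not lower, at a mean of 11.60 in KL null and 11.55 with vehicle. Of 3 markers of the thick limb and distal convoluted tubule 1 was called lower, as was 1 of 2 podocyte markers. The part of all these markers in the differences of the lists was not tested.

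The remaining 7 genes called in KL null went in both directions. Stc2, a secreted glycoprotein induced by ATF4, was at 7.17, 7.18, 7.24 and 7.19 in KL null and at 6.48, 6.69, 6.64 and 6.24 with vehicle, 1.60-fold higher (log2 difference 0.68, SE 0.101, adjusted p = 0.000857). Among the amino acid enzymes, the mitochondrial folate gene Mthfd1l rose by 0.57 (adjusted p = 0.00831) and Shmt2, which makes glycine from serine in mitochondria, fell by 0.40 (adjusted p = 0.0166). The leucyl-tRNA synthetase gene Lars rose by 0.39 (adjusted p = 0.00831), and Yars, for tyrosine, fell by 0.38 (adjusted p = 0.0253). Slc3a2, the heavy chain of amino acid exchangers, fell by 0.46 (adjusted p = 0.0365), and Sesn3, a paralog of Sesn2, by 0.24 (adjusted p = 0.0493). Stc2, Mthfd1l and Lars passed in all other fits they entered, Sesn3 in 7 of 22. Slc3a2 passed in 17 of 22 and lost its call without WT vehicle replicates 1 or 3 or KL null replicates 1 or 3. Shmt2 and Yars each passed in 18 and lost it without WT vehicle replicates 1 or 3 or KL null replicates 2 or 3. In the other 2 lists, eIF2alpha regulators and partner factors, 0 of 8 and 0 of 6 passed.

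**Figure D4:**
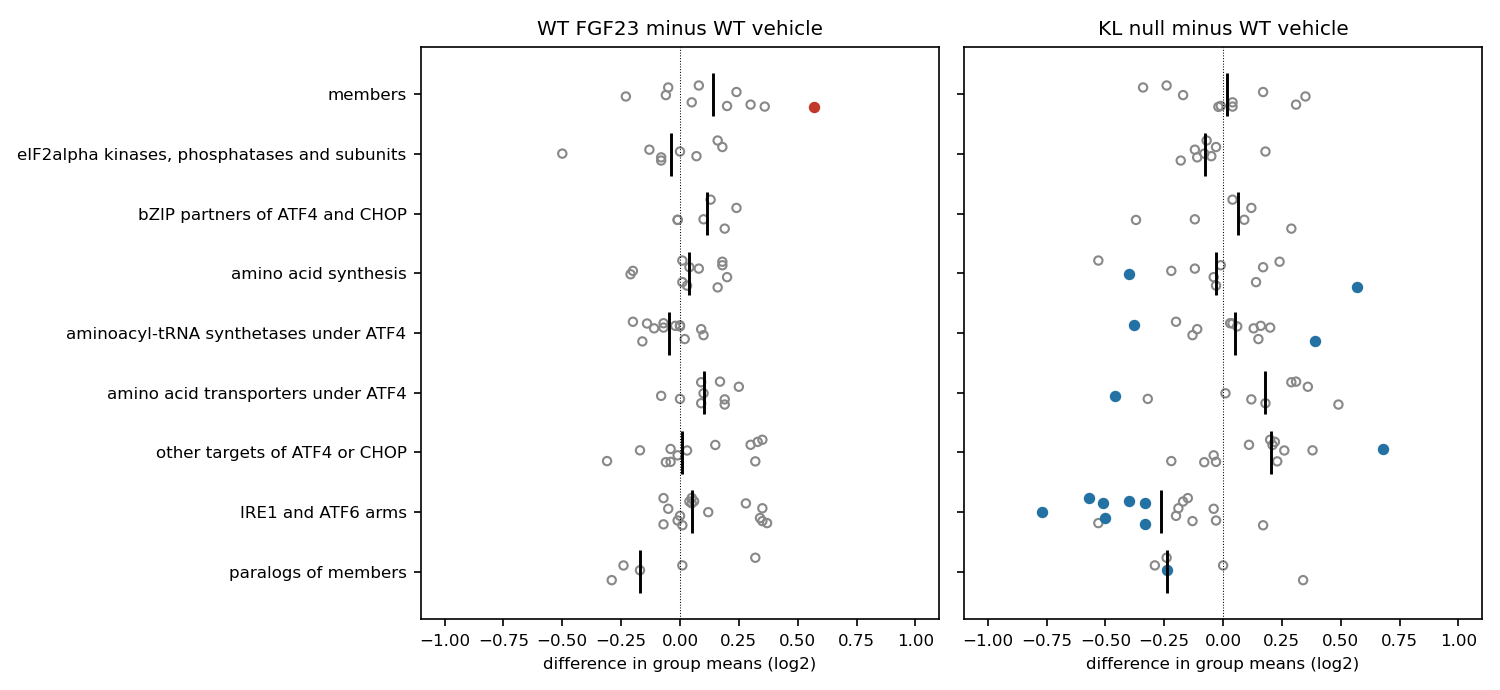
Difference in group means (log2, horizontal axes) of single genes (points) in the 10 members and the 8 lists (rows) for WT FGF23 minus WT vehicle (left) and KL null minus WT vehicle (right), with the median of a list as a black line and filled points for a limma adjusted p below 0.05. Ddit3 is the single filled point on the left, and on the right the 7 filled points of the IRE1 and ATF6 arms lie between -0.77 and -0.33.

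To place the patterns among all genes, profiles over the 12 arrays, each centred on its mean, were compared by their root mean square (RMS) difference, over 18261 genes, leaving out unnamed loci and small RNAs. The profile of Ddit3 had an RMS deviation of 0.302 from its own mean. Nearest to it were Dll1 (RMS difference 0.126), Sertad1 (0.13), Spry4 (0.136), Chka (0.148) and N4bp3 (0.151). Among the members Chac1 came nearest, at rank 380 (0.219), followed by Atf4 at rank 2326 (0.26), while Asns was at rank 17922 (0.586). Nearest to Asns were Acot2 (0.223), Cntn1 (0.258), Muc1 (0.259), Mfap5 (0.261) and Cyp27a1 (0.264), and its nearest member was Atf5 at rank 1904 (0.381). The spread within groups also differed among members. Pooled over the 3 groups, the SD was 0.394 for Asns, 0.327 for Phgdh, 0.32 for Psat1 and 0.304 for Sesn2, each at or above the 96.7th percentile of all genes, and 0.114 for Trib3 and 0.14 for Ddit3, where the median gene had 0.149.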

How the data were processed

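Kidney RNA from 12 arrays was measured. The deposited values are log2 signals, 1 per probe set and array; the submitters' processing notes name Partek 6.2 and RMA for them, and settings are not given in the sources used here. Of 28853 probe sets, 21789 had 1 gene symbol in the platform annotation, 1621 several and 5443 none; 21698 of the first matched the RefSeq table of GRCm38.p6. A gene was represented by its highest-mean probe set. One two-sided limma 3.58.1 analysis (R 4.3.3, lmFit and eBayes) held 3 group means and 9 residual degrees of freedom. Benjamini-Hochberg adjustment was over 19938 genes. The code was tested on simulated independent values with changes larger than those of the members. That test therefore does not bear on differences of the members' size. The number of arrays limits the precision. Figures were drawn with matplotlib 3.10.9.

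The members and lists were chosen with earlier results of these data known. Named were all members, the called genes of each list (at most 3 per direction, by p) for each comparison with vehicle, the 5 genes nearest in profile to Ddit3 and Asns, and Kl and Egr1. The AP-1 and EGR motifs were added after the values were seen.

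The numbers in the labels were checked for pairing by correlating deviations from group means. Between WT FGF23 and KL null every same-numbered pair had r of 0.143 to 0.259. The labels do not say what the numbers share. No correlation was computed between arrays with different numbers, so these values do not establish a pairing. The main fit has no block. Against WT vehicle r ran from -0.216 to 0.191 for WT FGF23 and from -0.137 to 0.169 for KL null.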

Additional observations from a re-analysis of the deposited data

Results flagged for a closer look

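In 4 cases a single array stood apart from the other 3 of its group, by a gap that takes up more of the group's range than Dixon's critical value for 4 samples allows at 95%. For Asns, WT FGF23 replicate 2 was at 8.23, with the next array at 7.75; without it the difference from vehicle was -0.36 in place of -0.23. Phgdh was at 6.57 in WT vehicle replicate 3, with the next at 6.89, and without that array its differences were 0.12 after FGF23 and -0.09 in KL null. Lars was at 8.55 in WT vehicle replicate 3, with the next at 8.74. Yars was at 7.61 in WT FGF23 replicate 4, with the next at 7.74. Checked were 60 sets of 4 arrays (20 genes in 3 groups), and chance alone flags about 1 in 20.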

How the results depend on the processing

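With WT FGF23 against vehicle, 1 member and 17 genes were called. The members called were 0, and the genes 10, after a further quantile normalization. They were 0 and 6 after centring on array medians, 0 and 7 with only the 2 groups compared, 0 and 11 with array spread as a covariate, and 0 and 8 without WT FGF23 replicates 1 and 2. Array quality weights gave 0 members. Leaving out 1 array gave 0 to 1 members and 4 to 14 genes. In KL null, array quality weights gave 2852 genes and 24 pathway genes, against 1598 and 14. Leaving out 1 array gave 0 to 1 members, 828 to 1728 genes and 7 to 16 pathway genes. For WT FGF23 against KL null, with 1 member and 2386 genes, it gave 1 to 2 members and 1218 to 2794 genes, and leaving out WT FGF23 replicates 1 and 2 gave 944 genes. The cause of these changes was not tested.

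With the replicate number as a block, WT FGF23 against vehicle had 0 members and 6 genes called, and Ddit3 an adjusted p of 0.104. In KL null the block took away the calls of Slc3a2 (0.0509) and Sesn3 (0.0658). For WT FGF23 against KL null, where every same-numbered pair had a positive correlation of deviations, it gave 2 members. With only those 2 groups, a fit added after seeing the data, it also gave 2. The block changed no other call of a member.

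Signs turned only for member differences that passed neither as reported nor in the alternative. After FGF23, Trib3 was at -0.03 (quantile), -0.02 (centred) and 0.00 (spread covariate, just below 0). With the spread covariate Sesn2 was at 0.03, Psat1 at 0.03 and Phgdh at -0.10. Without WT FGF23 replicates 1 and 2, Atf4 was at -0.11 and Phgdh at -0.17. In KL null, Trib3 was at -0.01 (quantile) and -0.01 (centred), and Chac1 at 0.00 (quantile, just below 0), -0.01 (centred) and -0.05 (spread covariate). In the direct contrast Trib3 was at -0.02 (quantile), -0.01 (centred), -0.01 (weights), -0.03 (spread covariate) and -0.03 (without WT FGF23 replicates 1 and 2). In that last fit Atf5 was at -0.06 and Phgdh at -0.17, and Ddit4 at 0.01 (quantile). Leaving out 1 array, the ranges were, after FGF23, -0.01 to 0.15 (Atf4), -0.16 to 0.10 (Sesn2) and -0.14 to 0.05 (Psat1). In KL null they were -0.10 to 0.03 (Ddit3), -0.02 to 0.09 (Trib3), -0.04 to 0.09 (Chac1) and -0.09 to 0.15 (Phgdh). In the direct contrast they were -0.03 to 0.08 (Trib3), -0.01 to 0.17 (Atf5), -0.01 to 0.25 (Sesn2) and -0.14 to 0.07 (Ddit4). A filter that kept genes at or above the median level left out Trib3 and Chac1. Signal over background was not measured for any probe set.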
